A study of Mus musculus with 12 samples.

Results

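The genes described here are 35 genes of cholesterol and fatty acid metabolism, chosen by symbol among the 55011 genes of the deposited count table and measured in regulatory T cells (Treg). They fall into 4 groups by role: 18 genes of sterol synthesis, 5 genes of SREBP control, 8 genes of sterol uptake, transport and efflux, and 4 genes of fatty acid synthesis. All 35 passed the low-count filter, which left 13295 genes to test. Cells came from 21-day-old male C57BL/6 mice, through a gate for live TCRβ+ CD4+ cells with GFP and CD25, at 1000 cells per library, and 3 libraries were made in each of 4 groups. Spleen WT and lung WT cells had the genotype Foxp3.ires.GFP, in which a GFP reporter follows an unaltered Foxp3. For spleen ∆Foxp3 the genotype label reads ∆Foxp3.EGFP.iCre X R26.YFP, and for lung ∆Foxp3 it reads ∆Foxp3.ires.GFP. The extraction protocol names ∆Foxp3.ires.GFP for all ∆Foxp3 mice, so the sources disagree on the spleen allele. Allele and tissue cannot be told apart wherever spleen ∆Foxp3 and lung ∆Foxp3 are compared, the interaction between genotype and tissue included. If the spleen label is right, the EGFP.iCre and R26.YFP constructs also differ between spleen WT and spleen ∆Foxp3. In every spleen genotype result these constructs then cannot be told apart from the deletion of Foxp3. All 4 groups carry a GFP or EGFP reporter in their label and were sorted through the same CD25 gate. Whether the replicates of a group are separate mice is not stated, so p-values reflect the spread among libraries only, part of which may be technical.

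Cells make cholesterol from acetyl-CoA through mevalonate, farnesyl diphosphate, squalene and lanosterol, and they make fatty acids from the same acetyl-CoA through malonyl-CoA. Transcription of both pathways is driven by the SREBP factors, encoded by Srebf1 and Srebf2, which Scap escorts from the endoplasmic reticulum for cleavage when sterol is low and which the Insig proteins hold back when sterol is high. Oxysterols act on LXR receptors, one of them encoded by Nr1h2, whose target genes include Abca1, Abcg1, Mylip and Srebf1. In T cells this metabolism feeds membrane growth during activation, and the mevalonate branch also supplies lipid anchors for small GTPases.

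SREBP factors usually act with NF-Y and Sp1, so the promoters of 4 genes are shown with the letters of those motifs: Mvd, which was lower in ∆Foxp3 cells of both tissues; Srebf1, which was higher in spleen; Hmgcs1, the 1 gene with the SRE core in its window; and Fasn, a textbook SREBP target. Each line holds the 150 bases before a RefSeq transcription start (GRCm38.p6), 5′ to 3′ on the strand of the gene, and capitals mark matches on either strand to CCAAT (NF-Y box), GGGCGG (GC box), CACGTG (E-box) or TCACNCCAC (SRE core).
Mvd promoter, chr8:122443423-122443572, minus strand: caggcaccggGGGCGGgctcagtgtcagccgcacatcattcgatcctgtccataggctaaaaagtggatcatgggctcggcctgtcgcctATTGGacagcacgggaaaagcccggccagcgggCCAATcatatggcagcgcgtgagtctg
Srebf1 promoter, chr11:60210472-60210621, minus strand: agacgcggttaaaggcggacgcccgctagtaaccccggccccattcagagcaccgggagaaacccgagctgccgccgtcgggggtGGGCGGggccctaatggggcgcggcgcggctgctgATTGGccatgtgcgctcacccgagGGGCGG
Hmgcs1 promoter, chr13:119690201-119690350, plus strand: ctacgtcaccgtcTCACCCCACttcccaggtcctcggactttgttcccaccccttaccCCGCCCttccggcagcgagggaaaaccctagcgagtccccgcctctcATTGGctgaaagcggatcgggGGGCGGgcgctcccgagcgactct
Fasn promoter, chr11:120824548-120824697, minus strand: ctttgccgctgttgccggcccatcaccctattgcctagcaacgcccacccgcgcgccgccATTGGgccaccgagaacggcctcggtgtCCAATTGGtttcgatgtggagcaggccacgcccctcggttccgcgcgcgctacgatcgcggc
The Mvd stretch holds 1 GC box and an NF-Y box in each orientation. The Srebf1 stretch belongs to 1 of 3 starts that RefSeq lists for the gene. In the Fasn stretch the capitals CCAATTGG are an NF-Y box on each strand that overlap by 2 bases. No such match is a measured binding site.

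RefSeq promoter windows, running from 250 bases before to 50 after a start, matched 28 of the 35 genes. Fdps, Fdft1, Sqle, Stard4, Abcg1, Npc1 and Scd2 had no matching entry. An NF-Y box was found for 23 of the 28 genes (82.1%), against 43.3% of the 9463 tested genes in the table. A GC box was found for 24 (85.7%), against 67.4%, and an E-box for 6 (21.4%), against 11.8%. The SRE core was found for 1 gene (3.57%), against 1.35%. Among the sterol synthesis genes, 14 of 15 held an NF-Y box and 14 of 15 a GC box. The NF-Y box was found for 4 of 5 matched genes that were called higher in ∆Foxp3 cells of either tissue and for 4 of 4 called lower. The 1 without it was Acaca, whose window lies inside the gene and holds none of the 4 motifs. These shares are descriptions of letters in a fixed window, and the absence of a match says nothing about the factor.

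Library totals ran from 3958892 to 9025150 counts, so that 3 counts in a library, the upper limit that a count of 0 allows, stand for 0.332 to 0.758 CPM, that is counts relative to the library total. Levels below are CPM scaled by TMM factors, and they are listed for libraries 1, 2 and 3 of a group in that order. Foxp3 itself had 1026, 991 and 1096 CPM in spleen WT against 158.9, 113.9 and 226.6 CPM in spleen ∆Foxp3. Lung WT libraries had 1418, 1361 and 1328 CPM and lung ∆Foxp3 libraries 469.1, 384.6 and 188.8 CPM, so every ∆Foxp3 library lay below every WT library, as the labels say. Summed over 8 T cell and Treg markers, a list that includes Foxp3, Il2ra, Ctla4 and Ikzf2, levels were 6062 to 6909 CPM in WT of either tissue, against 3969 to 4980 CPM in ∆Foxp3. Of the 8, 6 were called lower in spleen and 4 in lung, against 12.5% and 10.5% of all tested genes. Cd4 was called higher in both (means of 649.4 and 844.3 CPM in spleen WT and ∆Foxp3, and 705.1 and 913.3 CPM in lung). Libraries of a group correlated at 0.9318 to 0.9739 on the log2 scale across genes, lowest for spleen WT 1 (0.9321 and 0.9318) and for spleen ∆Foxp3 2 with 3 (0.9426). Calls are also given without spleen WT 1, lung WT 1 and lung ∆Foxp3 3 together where that changes them. That set was taken from earlier work on these data and leaves 2 libraries in each of those groups. Lung ∆Foxp3 3 correlated with its group at 0.965 and 0.9731, about as lung ∆Foxp3 1 did (0.9712 and 0.965). In bulk libraries, fewer cells of a type and less RNA per cell cannot be told apart.

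Summed levels of cell cycle genes and of markers of other cells differed between the groups. Summed over 16 cell cycle genes, the level was 605 to 887 CPM in spleen WT and 3019 to 7479 CPM in spleen ∆Foxp3, and 1961 to 3033 CPM in lung WT against 4407 to 6335 CPM in lung ∆Foxp3. The sum of 6 erythroid markers was 1974 to 4901 CPM in lung WT and at most 403.4 CPM in every other group. The 6 B and plasma cell markers summed to 1114 to 1274 CPM in spleen WT and 1928 to 1969 CPM in lung WT, against 76.6 to 260.7 CPM in the ∆Foxp3 groups. Ighm made up most of each of these sums and was the only 1 of 3 tested markers called (lower in both tissues), while Cd79b lay within 18.4 to 35.69 CPM in all 12 libraries and Ms4a1 at no more than 2.11 CPM. For 5 endothelial markers the sum was 387.9 to 494.7 CPM in WT, against 92.5 to 158.3 CPM in ∆Foxp3. It was carried by Pecam1 and Ly6c1, both called lower in both tissues, while Cdh5 and Kdr were at no more than 1.58 CPM in any library. The other of the 3 tested endothelial markers was not called by genotype in either tissue. Between lung and spleen, log2 fold changes of these 3 ran from -0.431 to 7.27 in WT and from -0.102 to 6.77 in ∆Foxp3, none of them called. The 6 lung epithelial markers summed to 38.6 to 209.2 CPM in lung WT and 12.1 to 20.3 CPM in lung ∆Foxp3, and the 7 fibroblast and adipocyte markers to 3.86 to 10.4 CPM in WT, against 19.1 to 48.9 CPM in ∆Foxp3. Fn1 was the most abundant of these 7, and 3 of the 7 had 0 counts in each spleen group. Only 2 of the 7 were tested, of which 1 was called higher in spleen and 1 in lung. The 8 myeloid markers, of which Ctss was the most abundant, summed to 251.4 to 531.6 CPM in WT, 263 to 481.8 CPM in spleen ∆Foxp3 and 160.6 to 236.3 CPM in lung ∆Foxp3, where Csf1r was at 0, 0 and 0.223 CPM. The part of these markers in the results below was not tested.

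**Figure D1:**
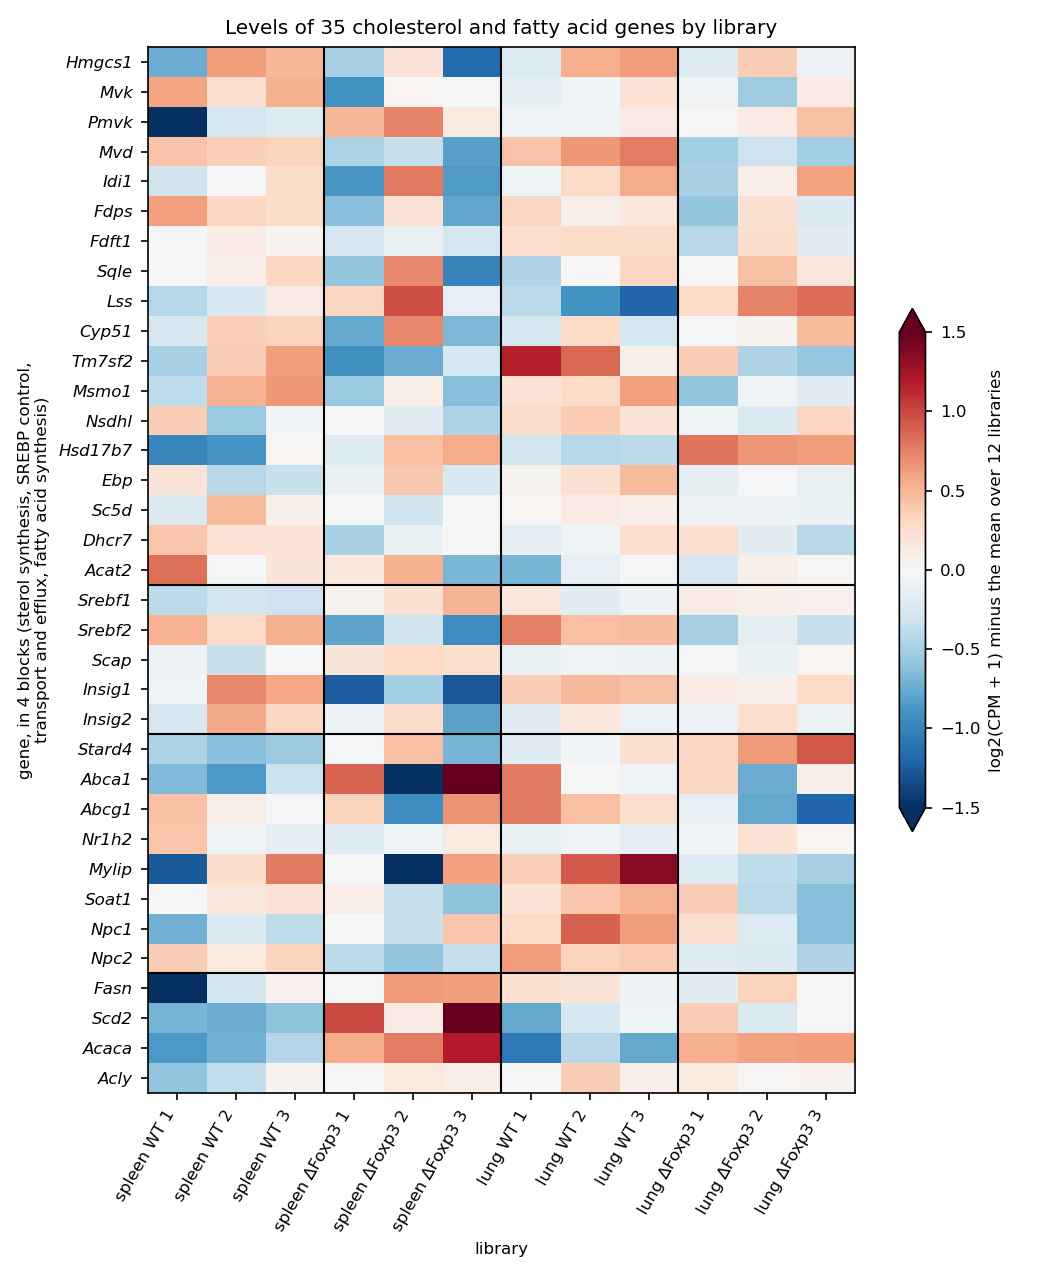
Levels of the 35 genes (rows, in 4 blocks by role) in the 12 libraries (columns), as log2(CPM + 1) minus the gene's mean over all libraries; colours stop at the ends of the scale. Srebf2, Mvd and Npc2 are blue in all 6 ∆Foxp3 libraries and Acaca is red in all 6, while Idi1, Sqle and Cyp51 are red in spleen ∆Foxp3 2 and blue in the other spleen ∆Foxp3 libraries.

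When ∆Foxp3 was set against WT, lipid genes were called in both directions. In spleen 4 genes rose (Pmvk, Srebf1, Scd2 and Acaca) and 4 fell (Mvd, Srebf2, Insig1 and Npc2), so that 8 of 35 (22.9%) were called by edgeR's quasi-likelihood test at an adjusted p under 0.05, against 26.6% of all tested genes (14.1% higher and 12.5% lower). In lung 3 rose (Lss, Hsd17b7 and Acaca) and 5 fell (Mvd, Srebf2, Abcg1, Npc1 and Npc2), again 8 of 35 (22.9%), against 20.2% of all tested genes (9.74% higher and 10.5% lower). Both shares lie near those over all genes. The balance in spleen depended on the tool and on single libraries: limma voom called 11 lower, edgeR 8 lower without spleen ∆Foxp3 2, DESeq2 8 higher, and edgeR 7 higher without spleen WT 3. In lung limma voom called 9 lower, and leaving out single libraries gave 3 to 6 lower. The shares over all genes are those of the main edgeR fit and can differ in other settings. Over all tested genes, leaving out single libraries gave 2710 to 3575 calls in spleen, against 3540 in the main fit. In lung it gave 1457 to 3364, against 2686. The libraries of the 2 genotypes did not overlap for 13 of the 35 genes in spleen, where 38.2% of all genes did not, and for 15 in lung, where 45.3% did not. The median log2 fold change over the 35 genes was -0.24 in spleen and -0.17 in lung, beside -0.02 and -0.01 over all tested genes, and 13 of the 35 had a positive value in each tissue. Without spleen WT 1, lung WT 1 and lung ∆Foxp3 3 together, 4 rose and 6 fell in spleen, and 2 rose and 1 fell in lung.

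The same direction was called in both tissues for 4 genes: Acaca was higher, and Mvd, Srebf2 and Npc2 were lower. They are 50% of the genes called in spleen and 50% of those called in lung. Over all tested genes, 1864 (14%) were called in the same direction in both tissues, which is 52.7% of the spleen calls and 69.4% of the lung calls.

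**Figure D2:**
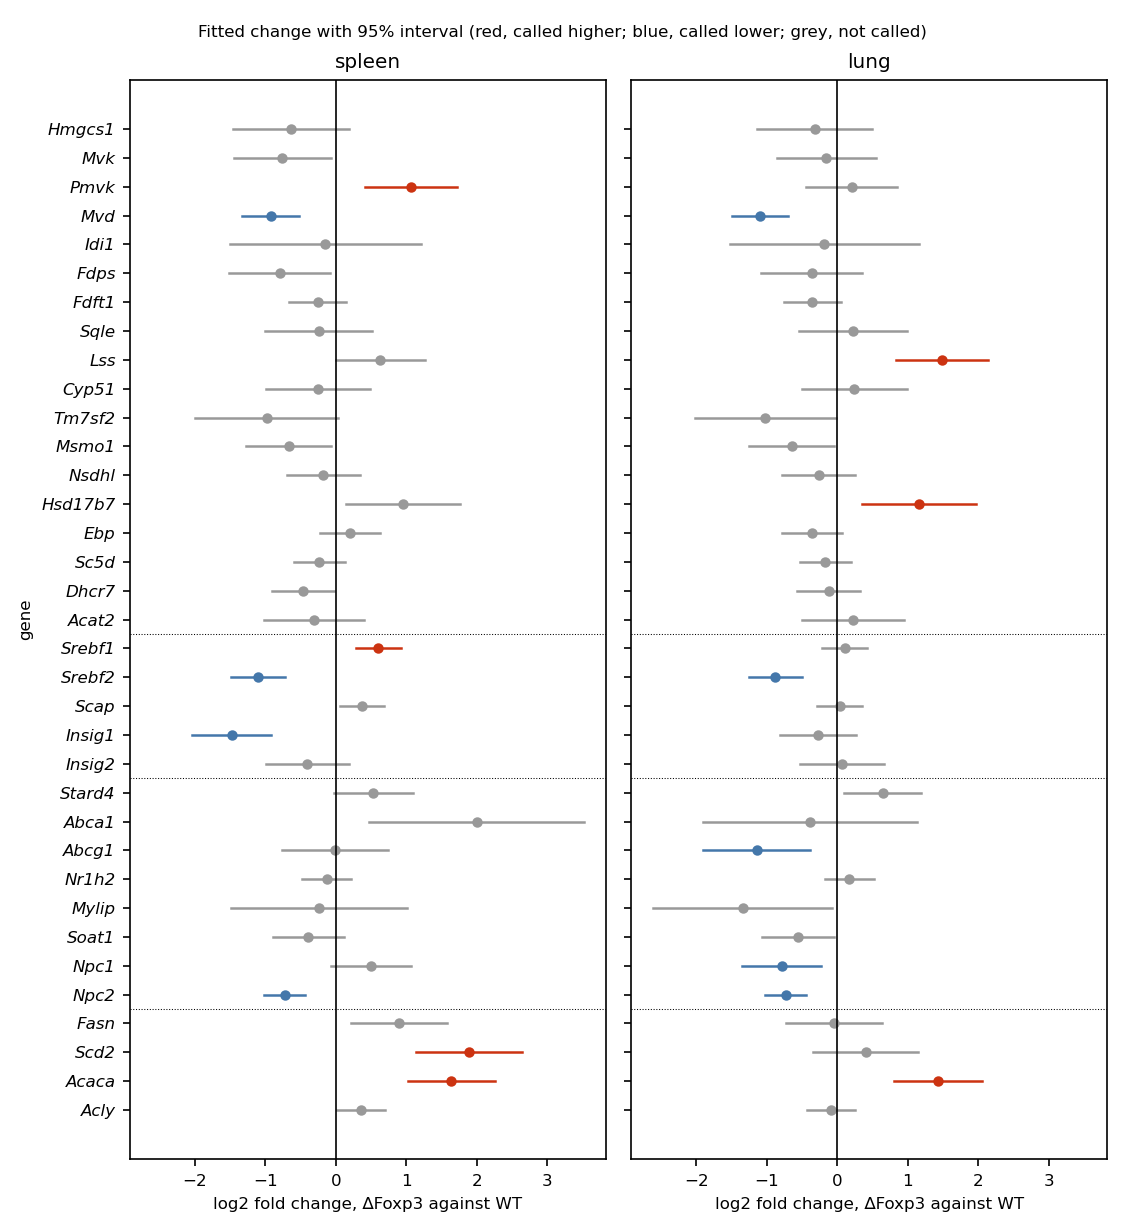
Fitted log2 fold change of ∆Foxp3 against WT (points) with 95% intervals (lines) for the 35 genes in spleen (left) and lung (right); red marks genes called higher, blue genes called lower and grey genes not called. Acaca lies to the right and Mvd, Srebf2 and Npc2 to the left in both panels, and the intervals of most sterol synthesis genes cross 0.

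Among the genes of SREBP control, Srebf2, which encodes the factor that mainly drives sterol synthesis, fell in both tissues. Its level was 220.9, 188.1 and 223.1 CPM in spleen WT and 88.96, 124.9 and 80.21 CPM in spleen ∆Foxp3. Each WT library stood above each ∆Foxp3 library. The fitted log2 fold change was -1.11 ± 0.18 (SE; edgeR adjusted p = 0.000384), a 2.15-fold lower level. The lung values of Srebf2 were 260.4, 210.7 and 212.5 CPM for WT and 109.1, 139.6 and 122.6 CPM for ∆Foxp3, again with no overlap. There the log2 fold change was -0.88 ± 0.18 (edgeR adjusted p = 0.0031). It was -0.74 without spleen WT 1, lung WT 1 and lung ∆Foxp3 3 together, where the call was lost (edgeR adjusted p = 0.0567). The gene lies at chr15:82147181-82205379 (plus strand, mm10).

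Srebf1, which encodes the factor that mainly drives fatty acid synthesis, rose in spleen. Its level was 113.6, 123.3 and 120.0 CPM in spleen WT and 153.9, 175.2 and 211.9 CPM in spleen ∆Foxp3, so the 2 genotypes did not overlap. The log2 fold change was 0.60 ± 0.15 (edgeR adjusted p = 0.00752). Among lung libraries, WT ones held 167.5, 132.2 and 140.8 CPM and ∆Foxp3 ones 161.5, 156.8 and 155.9 CPM. Those ranges overlapped, and the log2 fold change of 0.11 (95% interval -0.21 to 0.42) was not called (edgeR adjusted p = 0.665). Srebf1 and Srebf2 thus moved in opposite directions in spleen, and per kilobase of exon their order turned: Srebf2 was at 29.3 and Srebf1 at 21.1 CPM per kb in spleen WT, and at 13.6 and 32.0 in spleen ∆Foxp3. The order turned in lung as well, where the same values were 31.7 and 26.1 in WT and 17.2 and 28.1 in ∆Foxp3. Srebf1 (chr11:60199089-60222581, minus strand) shares exonic bases with Rai1 on the other strand and with Mir6922. The same holds on the other strand for Hmgcs1, Idi1, Fdft1, Cyp51 and Scap and on the same strand for Fdps, Tm7sf2 and Scd2, and no source used here gives the strand setting of the counting, so reads of such partners may be mixed.

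Insig1, which retains the SREBP and Scap complex and is itself an SREBP target, had the largest fall of the 35 genes in spleen. Levels were 29.63, 51.63 and 46.6 CPM in spleen WT and 12.46, 21.33 and 12.2 CPM in spleen ∆Foxp3. The lowest WT library was still above the highest ∆Foxp3 library, and the log2 fold change was -1.48 ± 0.26 (edgeR adjusted p = 0.000845). Lung WT libraries had 40.06, 43.54 and 42.19 CPM of Insig1 and lung ∆Foxp3 libraries 33.46, 32.51 and 38.2 CPM. These groups did not overlap either, but the log2 fold change of -0.27 (95% interval -0.82 to 0.27) was not called (edgeR adjusted p = 0.492). The gene lies at chr5:28071363-28078662 (plus strand).

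Insig2, which has the same retaining role, was not called in either tissue. It was at 30.85, 54.85 and 45.67 CPM in spleen WT and 34.75, 44.11 and 20.52 CPM in spleen ∆Foxp3. In lung the levels were 32.52, 41.2 and 34.28 CPM in WT and 34.38, 44.01 and 34.4 CPM in ∆Foxp3. The genotypes overlapped in both tissues, with log2 fold changes of -0.41 (95% interval -0.998 to 0.183) and 0.07 (-0.53 to 0.66). Scap, the escort protein, was at 54.31 to 68.97 CPM in spleen WT and 78.03 to 84.86 CPM in spleen ∆Foxp3, which did not overlap, and its log2 fold change of 0.37 was not called (edgeR adjusted p = 0.0787). In lung its libraries lay between 63.96 and 69.92 CPM in both genotypes.

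**Figure D3:**
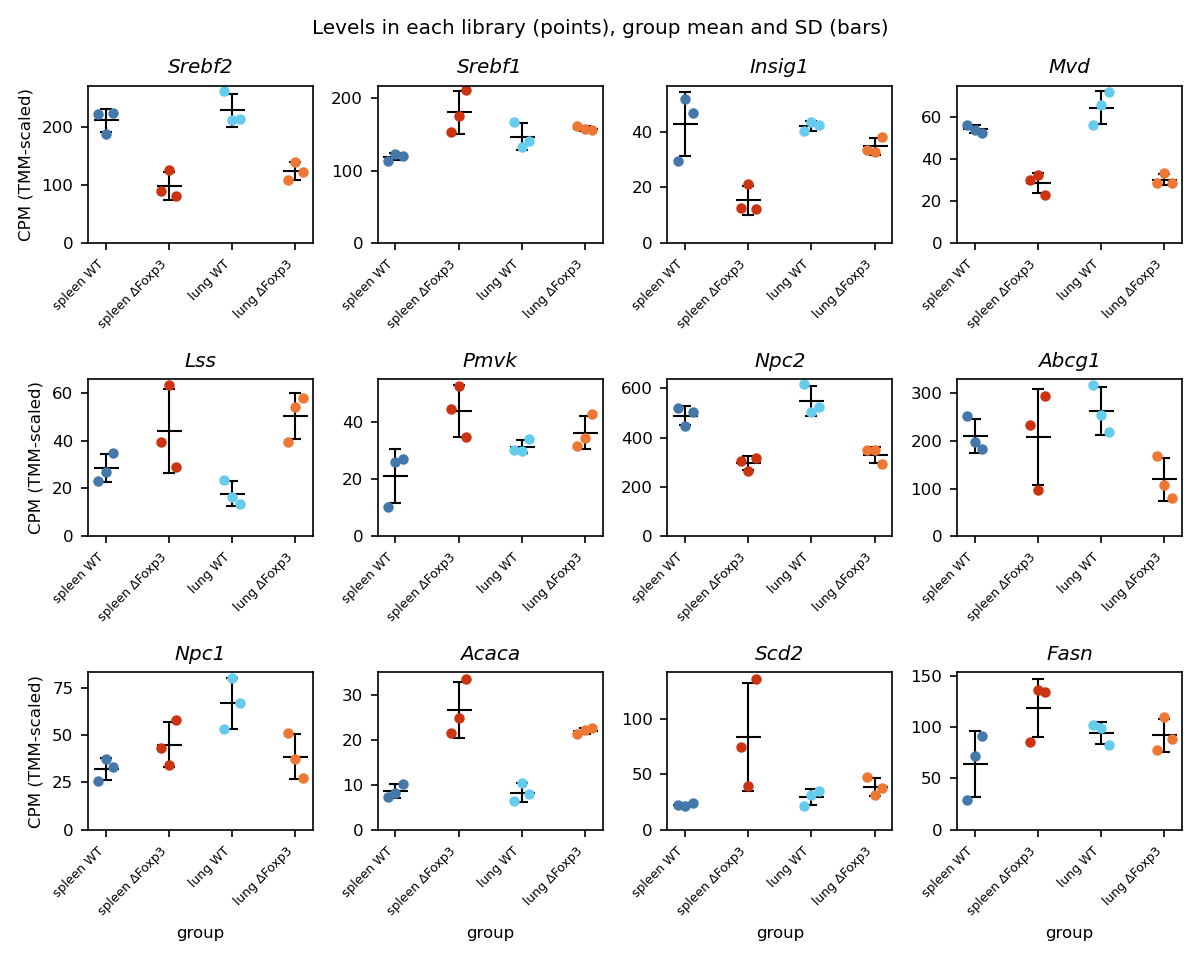
Level of 12 of the genes in each library (points, TMM-scaled CPM, linear axes from 0) with group mean and SD (bars, n = 3). Srebf2, Mvd and Npc2 are lower and Acaca is higher in all ∆Foxp3 libraries of both tissues, whereas Srebf1, Insig1 and Scd2 were called in spleen and not in lung, a difference that did not pass the interaction test.

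In sterol synthesis, 2 of 18 genes were called in spleen (1 higher and 1 lower) and 3 of 18 in lung (2 higher and 1 lower), with median log2 fold changes of -0.26 and -0.17. Over all tested genes 14.1% were called higher and 12.5% lower in spleen, and 9.74% and 10.5% in lung. The spleen count rested on the tool: limma voom called 8 of 18 lower, adding Hmgcs1, Mvk, Fdps, Cyp51, Tm7sf2, Msmo1 and Dhcr7 (limma adjusted p from 0.00477 to 0.0487). It called 3 of 18 lower in lung, adding Tm7sf2 and Msmo1 (limma adjusted p = 0.0374 and 0.0303). Without spleen ∆Foxp3 2, edgeR called 5 of 18 lower in spleen. Over all tested genes its calls in either direction were then 2710, against 3540 in the main fit. The shares over all genes given above are those of the main edgeR fit. The share that limma voom called over all genes is not given here. A positive fold change was seen for 4 genes in spleen and 6 in lung. Mvd, which decarboxylates mevalonate diphosphate to isopentenyl diphosphate, fell in both tissues. It was at 56.25, 53.6 and 52.62 CPM in spleen WT and at 29.95, 32.6 and 23.1 CPM in spleen ∆Foxp3. The lung values were 56.21, 65.56 and 71.73 CPM for WT and 28.84, 33.3 and 28.59 CPM for ∆Foxp3. All 6 ∆Foxp3 libraries lay below all 6 WT libraries. The log2 fold change was -0.93 ± 0.19 in spleen (edgeR adjusted p = 0.00207) and -1.09 ± 0.19 in lung (edgeR adjusted p = 0.00112), and the 2 did not differ detectably (interaction -0.16, 95% interval -0.72 to 0.40). The gene lies at chr8:122433601-122443422 (minus strand), directly downstream of the promoter stretch printed above.

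Pmvk, phosphomevalonate kinase, acts just before Mvd in the pathway and moved the other way in spleen. Levels were 10.36, 25.73 and 27.0 CPM in spleen WT and 44.37, 52.26 and 34.44 CPM in spleen ∆Foxp3. The groups did not overlap, with 1 WT library (spleen WT 1) far below the others, and the log2 fold change was 1.06 ± 0.30 (edgeR adjusted p = 0.0182). The call was lost without spleen ∆Foxp3 2 (0.91, edgeR adjusted p = 0.0693). It was also lost in a fit of only the 2 spleen groups (1.06, edgeR adjusted p = 0.0747). In lung Pmvk was at 29.8 to 33.93 CPM for WT, with ∆Foxp3 at 31.61 to 42.66 CPM, and was not called (0.21, edgeR adjusted p = 0.679). Mvk, the kinase before Pmvk, was at 16.44 to 21.05 CPM in spleen WT and 6.78 to 13.9 CPM in spleen ∆Foxp3, without overlap, and did not pass (edgeR adjusted p = 0.0981).

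Lss, which closes the rings of oxidosqualene to give lanosterol, rose in lung. Its levels were 23.69, 16.59 and 13.36 CPM in lung WT and 39.22, 53.92 and 57.63 CPM in lung ∆Foxp3. Every ∆Foxp3 library exceeded every WT library, and the log2 fold change was 1.49 ± 0.31 (edgeR adjusted p = 0.00362). In spleen its levels were 23.28, 26.98 and 34.72 CPM in WT and 39.56, 63.05 and 28.99 CPM in ∆Foxp3. Spleen ∆Foxp3 3 fell inside the WT range, and the log2 fold change of 0.63 (95% interval -0.01 to 1.26) was not called (edgeR adjusted p = 0.135). Exons of Lss (chr10:76531588-76557138, plus strand) overlap 4930483K19Rik on the other strand.

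Hsd17b7, a reductase of a late step of cholesterol synthesis, was a low gene that also rose in lung. Its levels were 7.32, 6.48 and 6.68 CPM in lung WT and 16.61, 14.87 and 14.52 CPM in lung ∆Foxp3. The groups were well apart, with a log2 fold change of 1.16 ± 0.38 (edgeR adjusted p = 0.0432). This call was lost in 9 of 22 alternative settings, among them those without any 1 of the 6 lung libraries (edgeR adjusted p from 0.0847 to 0.114) and without spleen WT 1, lung WT 1 and lung ∆Foxp3 3 together (0.0971). In spleen the levels were 4.12, 4.47 and 9.26 CPM in WT and 7.87, 12.71 and 13.78 CPM in ∆Foxp3, with 1 WT library inside the ∆Foxp3 range, and the log2 fold change of 0.95 was not called (edgeR adjusted p = 0.0775).

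The other 14 sterol synthesis genes were not called by edgeR in either tissue. Hmgcs1, which makes HMG-CoA, was at 43.21, 112.7 and 103.7 CPM in spleen WT and 51.37, 83.66 and 32.14 CPM in spleen ∆Foxp3, and the groups overlapped (means 86.55 ± 37.8 and 55.72 ± 26.03 CPM, SD, n = 3). Sqle, which epoxidises squalene, and Cyp51, which demethylates lanosterol, had log2 fold changes of -0.24 and -0.26 in spleen and 0.23 and 0.24 in lung. Fdps, farnesyl diphosphate synthase, was at 17.28 to 22.05 CPM in spleen WT and 7.75 to 16.54 CPM in spleen ∆Foxp3, without overlap (-0.80, edgeR adjusted p = 0.0936). Fdft1, squalene synthase, also did not overlap in spleen (-0.26, edgeR adjusted p = 0.339), nor did Dhcr7, the reductase of the last step (-0.46, edgeR adjusted p = 0.113). Msmo1, a methylsterol oxidase, had log2 fold changes of -0.67 in spleen and -0.64 in lung (edgeR adjusted p = 0.0921 and 0.12). Tm7sf2, a sterol reductase, had -0.98 and -1.02 (edgeR adjusted p = 0.143 and 0.141), at no more than 17.01 CPM in any library. Acat2, Nsdhl, Ebp, Sc5d and Idi1 lay between -0.35 and 0.22 in both tissues. Idi1, the isopentenyl diphosphate isomerase, was at 1.53, 6.95 and 1.58 CPM in spleen ∆Foxp3, where it was the lowest of the 35 per kilobase (0.957 CPM per kb). In lung Msmo1, Ebp and Sc5d did not overlap between genotypes.

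Summed over the 18 genes, sterol synthesis stood at 752.1, 861.8 and 865.3 CPM in spleen WT and at 647.2, 907.1 and 591.9 CPM in spleen ∆Foxp3. Spleen ∆Foxp3 2 was the highest of these 6 libraries and the other ∆Foxp3 libraries were the lowest. In lung the sums were 762.8, 879.5 and 926 CPM in WT and 711.8, 809 and 784.7 CPM in ∆Foxp3, which overlapped. Per kilobase of exon, Ebp was the most abundant sterol synthesis gene in all 4 groups (44.8 to 60.1 CPM per kb).

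Of the genes of sterol uptake, transport and efflux, 1 of 8 was called in spleen and 3 of 8 in lung, and all of these calls were lower, against 12.5% and 10.5% of all genes called lower. In lung the count ran from 1 to 4 when single libraries were left out, and none of the 3 calls held without spleen WT 1, lung WT 1 and lung ∆Foxp3 3 together. Median log2 fold changes were -0.07 and -0.64. Npc2 is a soluble lysosomal protein that hands cholesterol to the membrane protein Npc1. Per kilobase of exon it was the most abundant of the 35 genes in WT cells (90.1 CPM per kb in spleen and 101 in lung), and it came after Acly in ∆Foxp3 cells (54.5 and 60.9, against 66.4 and 66.2 for Acly). It was at 518.8, 445.7 and 505.2 CPM in spleen WT and at 306.7, 265.4 and 317.3 CPM in spleen ∆Foxp3. Among lung libraries, WT ones held 619.6, 505.1 and 522.8 CPM and ∆Foxp3 ones 350.3, 349.3 and 293.3 CPM. No ∆Foxp3 library reached any WT library. The log2 fold change was -0.72 ± 0.14 in spleen (edgeR adjusted p = 0.00131) and -0.73 ± 0.14 in lung (edgeR adjusted p = 0.002). Without spleen WT 1, lung WT 1 and lung ∆Foxp3 3 together the lung call was lost (-0.53, edgeR adjusted p = 0.0517). The gene lies at chr12:84754562-84773152 (minus strand).

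Npc1, which exports cholesterol through the lysosomal membrane, gave a different picture. It was at 25.73, 37.34 and 32.87 CPM in spleen WT and 43.06, 34.04 and 57.83 CPM in spleen ∆Foxp3, where the groups overlapped (0.50, edgeR adjusted p = 0.182). Lung WT libraries had 52.98, 80.33 and 66.81 CPM and lung ∆Foxp3 libraries 51.22, 37.47 and 27.25 CPM. The lung groups lay next to each other without overlap, and the log2 fold change was -0.79 ± 0.27 (edgeR adjusted p = 0.0488). This call lay at the threshold and was lost in 12 of 22 alternative settings. It was lost without spleen WT 2 (edgeR adjusted p = 0.0566), spleen WT 3 (0.0585), spleen ∆Foxp3 1 (0.0718), lung WT 1 (0.0547), lung WT 2 (0.201), lung WT 3 (0.109), lung ∆Foxp3 2 (0.147) or lung ∆Foxp3 3 (0.221), and without spleen WT 1, lung WT 1 and lung ∆Foxp3 3 together (-0.70, 0.124). Rmc1 and Gm15956 overlap its exons on the other strand.

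Abcg1, an LXR target that exports cholesterol, fell in lung. Its levels were 317.2, 253.4 and 218.2 CPM in lung WT and 169.4, 108.2 and 80.42 CPM in lung ∆Foxp3. The groups did not overlap, and the log2 fold change was -1.14 ± 0.35 (edgeR adjusted p = 0.0379). The call was lost in 11 of 22 alternative settings, among them those without spleen WT 1, 2 or 3 (edgeR adjusted p = 0.0522, 0.0529 and 0.0528), spleen ∆Foxp3 1 (0.0546), lung WT 1, 2 or 3 (0.133, 0.0878 and 0.0565) or lung ∆Foxp3 2 or 3 (0.134 and 0.155), and without spleen WT 1, lung WT 1 and lung ∆Foxp3 3 together (-0.74, 0.306). In spleen Abcg1 was at 251.6, 197.8 and 182.7 CPM for WT, while ∆Foxp3 had 233.9, 96.37 and 294.4 CPM. Spleen ∆Foxp3 2 was the lowest and spleen ∆Foxp3 3 the highest of the 6, and the log2 fold change was -0.01 (95% interval -0.76 to 0.73).

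Abca1, another LXR target and cholesterol exporter, varied widely within a group. In spleen ∆Foxp3 it was at 15.52, 1.92 and 41.18 CPM, against 4.68, 3.93 and 6.17 CPM in spleen WT. One ∆Foxp3 library lay below the WT libraries and the other ones above them, and the log2 fold change of 2.00 (95% interval 0.47 to 3.52) was not called (edgeR adjusted p = 0.0517). It passed in 5 of 22 alternative settings: without spleen ∆Foxp3 2 (2.52, edgeR adjusted p = 0.00238), with no low-count filter (0.00019), with RLE factors (0.0491), without robust dispersion (0.0495) and with DESeq2 (adjusted p = 0.0146). The macrophage genes Csf1r and Marco were at 109.9, 13.18 and 49.93 CPM and at 30.16, 6.71 and 13.34 CPM in the same libraries. They shared with Abca1 the lowest library, spleen ∆Foxp3 2, but were highest in spleen ∆Foxp3 1, where Abca1 was highest in spleen ∆Foxp3 3. All 8 myeloid markers together summed to 481.8, 263 and 316.4 CPM in these libraries, against 531.6, 382.3 and 354.6 CPM in spleen WT. Of the 8, 1 was called higher and 1 lower in spleen. The part of these markers in the Abca1 values was not tested. In lung, where Csf1r was at or near 0 in ∆Foxp3, Abca1 was at 14.43, 8.03 and 7.56 CPM in WT and 10.15, 4.36 and 8.49 CPM in ∆Foxp3.

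Mylip, an LXR target that marks lipoprotein receptors for degradation, was at 29.5, 44.05 and 60.3 CPM in lung WT and 19.84, 17.25 and 15.86 CPM in lung ∆Foxp3. The groups did not overlap, and the log2 fold change of -1.34 (95% interval -2.61 to -0.07) was not called (edgeR adjusted p = 0.127). In spleen its 3 WT libraries ran from 8.91 to 39.96 CPM and its 3 ∆Foxp3 libraries from 5.03 to 35.3 CPM. Soat1, which esterifies cholesterol for storage, had log2 fold changes of -0.39 in spleen and -0.55 in lung (edgeR adjusted p = 0.243 and 0.113). Stard4, a sterol carrier of the cytosol, had 0.53 and 0.65 (edgeR adjusted p = 0.148 and 0.0914), and its lung groups did not overlap. Nr1h2, which encodes an LXR, lay within 117.6 to 180.4 CPM in all 12 libraries (-0.13 in spleen and 0.17 in lung).

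Fatty acid synthesis had the highest median change of the 4 groups in spleen, where 2 of 4 genes rose, none fell and all 4 had a positive log2 fold change (median 1.27). In lung 1 of 4 rose and the median was 0.18. Over all tested genes 14.1% were called higher in spleen and 9.74% in lung, with median log2 fold changes of -0.02 and -0.01. Acaca, acetyl-CoA carboxylase, which makes malonyl-CoA in the committed step, rose in both tissues. It was at 7.35, 8.22 and 10.18 CPM in spleen WT and at 21.42, 24.93 and 33.58 CPM in spleen ∆Foxp3. The lung values were 6.24, 10.37 and 7.91 CPM for WT and 21.23, 22.2 and 22.56 CPM for ∆Foxp3. Every ∆Foxp3 library was more than 2-fold above every WT library of its tissue. The log2 fold change was 1.64 ± 0.29 in spleen (edgeR adjusted p = 0.000786) and 1.43 ± 0.29 in lung (edgeR adjusted p = 0.00355). The gene, at chr11:84129672-84401651 (plus strand), has 17074 exonic bases in the annotation, and per kilobase it was the lowest of the 35 in lung WT, at 0.479 CPM per kb.

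Scd2, a desaturase that puts the double bond into saturated fatty acids, rose in spleen. It was at 22.28, 21.62 and 23.92 CPM in spleen WT and at 74.32, 39.79 and 136.5 CPM in spleen ∆Foxp3. The WT libraries lay within a narrow range and all ∆Foxp3 libraries above it, although those differed more than 3-fold among themselves. The log2 fold change was 1.89 ± 0.35 (edgeR adjusted p = 0.00119). Among lung libraries, WT ones held 21.32, 31.1 and 35.34 CPM of Scd2 and ∆Foxp3 ones 47.76, 31.52 and 37.3 CPM, and the log2 fold change of 0.41 (95% interval -0.34 to 1.15) was not called (edgeR adjusted p = 0.447). Scd2 (chr19:44293674-44306864, plus strand) belongs to a family of related genes, so its counts may hold shared reads, which was not tested.

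Fasn, fatty acid synthase, was at 28.96, 71.82 and 91.04 CPM in spleen WT and 85.46, 135.9 and 134.3 CPM in spleen ∆Foxp3. One ∆Foxp3 library lay inside the WT range, and the log2 fold change of 0.90 ± 0.32 narrowly missed the threshold (edgeR adjusted p = 0.0509). It passed in 9 of 22 alternative settings, among them those without spleen WT 3 (1.24, edgeR adjusted p = 0.0167), without spleen ∆Foxp3 1 (1.12, 0.0273) and without lung ∆Foxp3 1 or 2 (0.0485 and 0.0479). In lung Fasn was at 82.1 to 102.3 CPM for WT, with ∆Foxp3 at 77.53 to 109.4 CPM (-0.04, 95% interval -0.72 to 0.64). Acly, which makes cytosolic acetyl-CoA from citrate for both pathways, was at 220.5, 258 and 343.5 CPM in spleen WT and 329.8, 366.8 and 355.1 CPM in spleen ∆Foxp3 (0.36, edgeR adjusted p = 0.117). It passed without spleen WT 3, the highest of the WT libraries (0.55, edgeR adjusted p = 0.0217). In lung Acly lay within 334.7 to 430.4 CPM in both genotypes. Summed over the 4 genes, levels were 279.1, 359.6 and 468.6 CPM in spleen WT and 511, 567.4 and 659.5 CPM in spleen ∆Foxp3, without overlap, and 464.5 to 570.6 CPM in all lung libraries.

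The comparison of tissues asked whether lipid genes differ between lung and spleen Treg. Among WT cells 1 of 35 genes was called (2.86%), against 4.13% of all genes (3.1% higher and 1.03% lower in lung). It was Npc1, higher in lung by 1.06 ± 0.27 on the log2 scale (edgeR adjusted p = 0.0343). Every lung WT library lay above every spleen WT library for Npc1. The call was lost without spleen WT 1 (edgeR adjusted p = 0.0921), spleen WT 2 (0.0618), spleen WT 3 (0.0702), lung WT 2 (0.138) or lung WT 3 (0.0918), and without spleen WT 1, lung WT 1 and lung ∆Foxp3 3 together (0.0539). Groups did not overlap for 7 of the 35 genes, against 25.6% of all genes, and the median log2 fold change was 0.20, beside -0.00117 over all genes. Tissue preparation also differed, since only lungs were digested with enzymes and enriched magnetically, and preparation and tissue cannot be told apart.

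Among ∆Foxp3 cells none of the 35 genes was called between lung and spleen, against 0.722% of all genes (0.549% higher and 0.173% lower in lung). At an unadjusted p under 0.05, 4 passed in edgeR (Insig1, Stard4, Abcg1 and Scd2), 11.4% against 9.18% of all genes. DESeq2 and limma voom each called Insig1 higher. Insig1 came nearest, with a level in lung 1.19 ± 0.26 higher on the log2 scale (edgeR adjusted p = 0.0574), and its 6 libraries did not overlap. It passed without spleen WT 1 (edgeR adjusted p = 0.0168) and without spleen ∆Foxp3 2 (1.50, 0.0145). Groups did not overlap for 3 of the 35 genes, against 15.5% of all genes.

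The interaction, which asks directly whether the genotype difference in lung differs from that in spleen, called 0 of the 35 genes in edgeR, against 0.925% of all genes (0.143% higher and 0.782% lower). DESeq2 called 1 lower gene (Npc1) and limma voom 1 higher gene (Insig1). At an unadjusted p under 0.05 there were 6 in edgeR (Srebf1, Insig1, Abca1, Abcg1, Npc1 and Scd2), 17.1% against 9.26% of all genes. The estimate for Insig1 was 1.21 (95% interval 0.43 to 1.99, edgeR adjusted p = 0.196). For Npc1 it was -1.29 (-2.09 to -0.49, adjusted p = 0.171) and for Scd2 -1.48 (-2.53 to -0.44, adjusted p = 0.267), also in edgeR. So a call in 1 tissue and not in the other, as for Srebf1, Insig1, Scd2, Lss or Abcg1, was not shown to be a difference between tissues.

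**Figure D4:**
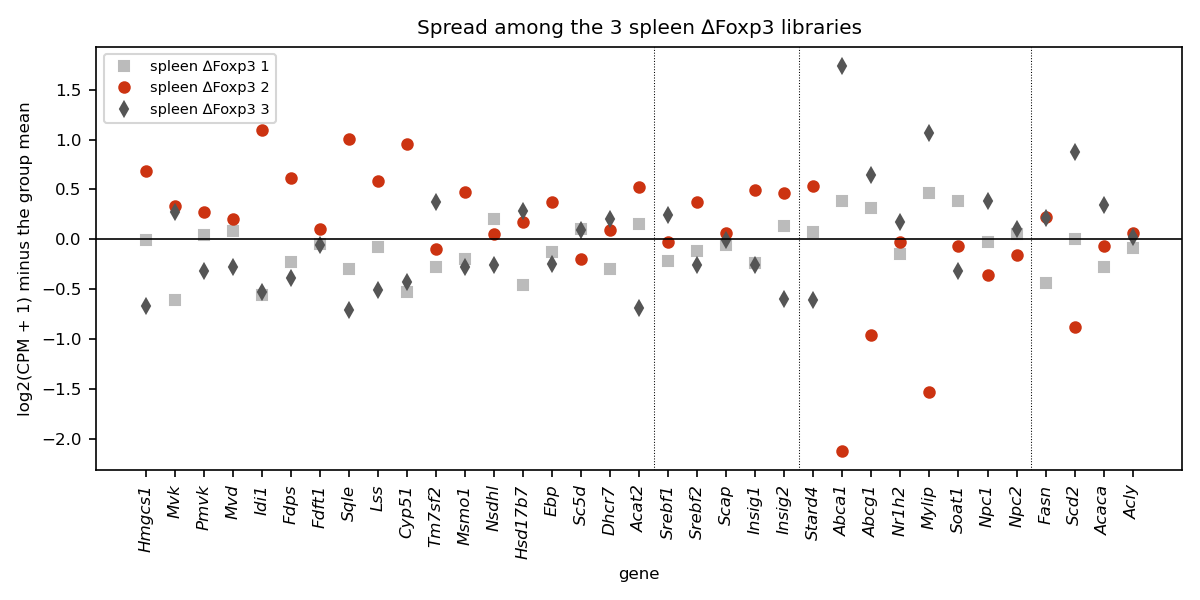
Level of each of the 35 genes in the 3 spleen ∆Foxp3 libraries, as log2(CPM + 1) minus the group mean, in the same 4 blocks (dotted lines). Spleen ∆Foxp3 2 (red) is the highest for 13 of 18 sterol synthesis genes and the lowest for Abca1, Abcg1 and Mylip, where spleen ∆Foxp3 3 is the highest.

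Within the spleen ∆Foxp3 group, single libraries were often the highest or the lowest for synthesis and transport genes. Spleen ∆Foxp3 2 was the highest of its group for 13 of 18 sterol synthesis genes and for Srebf2, Scap, Insig1 and Insig2, and among the 18 it was the lowest for Sc5d. Of the 8 genes of uptake, transport and efflux it was the lowest for 5 (Abca1, Abcg1, Mylip, Npc1 and Npc2) and the highest for Stard4. Over all tested genes the same library was the highest for 37.1% and the lowest for 36.2%. Spleen ∆Foxp3 3 was the lowest for 11 of 18 sterol synthesis genes and the highest for 6 of 8 genes of uptake, transport and efflux, against 36.5% and 37.6% of all tested genes. The summed cell cycle level was 5964, 7479 and 3019 CPM in these 3 libraries, highest in the same library as sterol synthesis, and its part was not tested. Without spleen ∆Foxp3 2, 8 of the 35 genes were lower in spleen ∆Foxp3 in place of 4, with Fdps (-1.21, edgeR adjusted p = 0.0243), Sqle (-0.94, 0.0225), Cyp51 (-0.91, 0.0212) and Msmo1 (-0.95, 0.0351) added. Without spleen WT 3, 7 were higher in place of 4. Over all tested genes, edgeR made 2710 calls in spleen without spleen ∆Foxp3 2, against 3540 with it.

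In spleen WT, replicate 1 was the lowest of its group for 20 of the 35 genes, against 41.7% of all tested genes, and in lung WT replicate 1 was the lowest for 21, against 36.8%. In lung ∆Foxp3, replicate 1 was the highest for 6 of 8 genes of uptake, transport and efflux, against 35.4% of all tested genes. Replicate 3 was the lowest for 5 of the 8, against 33.2%. These orders are descriptions of single libraries.

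**Figure D5:**
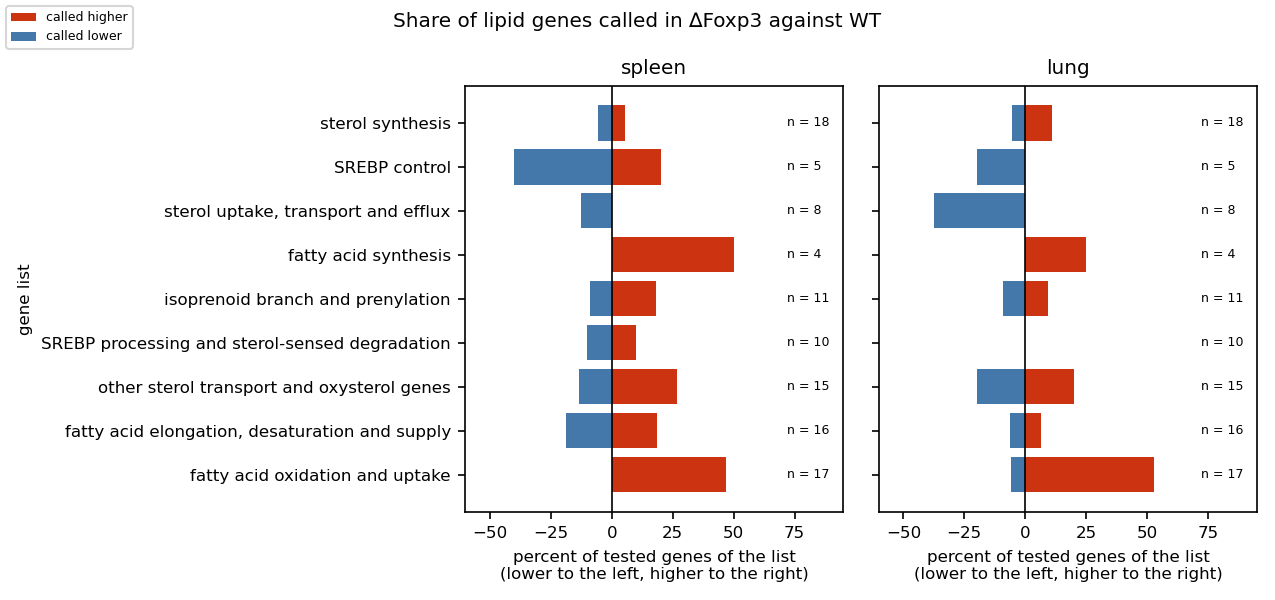
Percent of the tested genes of each list called higher (red, to the right) or lower (blue, to the left) in ∆Foxp3 against WT in spleen and lung, with the number of tested genes at the right (n). Fatty acid oxidation and uptake has 8 of 17 genes higher in spleen and 9 of 17 in lung, while sterol synthesis has 1 and 2 of 18. Over all tested genes 14.1% were called higher in spleen and 9.74% in lung.

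Other genes around these pathways were read from 5 companion lists. In fatty acid oxidation and uptake, 8 of 17 genes rose and none fell in spleen (median log2 fold change 0.51), where 14.1% of all tested genes were called higher. In lung 9 rose (median 0.45), where 9.74% of all genes were called higher, and 8 were higher in both tissues. No test compared the lists with each other. Pparg, a nuclear receptor that binds fatty acids, was at 3.34, 2.32 and 2.47 CPM in spleen WT and 16.83, 32.12 and 35.87 CPM in spleen ∆Foxp3. Lung WT libraries had 11.63, 6.74 and 3.16 CPM and lung ∆Foxp3 libraries 70.6, 33.1 and 53.83 CPM, and groups did not overlap in either tissue. Its log2 fold changes were 3.36 ± 0.46 (edgeR adjusted p = 0.000111) and 2.88 ± 0.44 (edgeR adjusted p = 0.000467). Acadl, a dehydrogenase of beta oxidation, rose by 1.14 and 1.32 on the log2 scale, and Etfb, which takes up electrons from such dehydrogenases, by 1.22 and 1.30 (edgeR adjusted p of 0.000467 or less). Cd36, a fatty acid transporter also made by macrophages and endothelium, was the 1 gene of this list called lower in lung (edgeR adjusted p = 0.0486). It had 64 counts over the lung WT libraries and 5 over lung ∆Foxp3, against 0 in spleen WT and 3 in spleen ∆Foxp3. It passed the low-count filter through lung WT, where it is high, so nothing is read from its call.

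Among the other sterol transport and oxysterol genes, 4 of 15 tested genes rose and 2 fell in spleen, and 3 rose and 3 fell in lung. Of all tested genes, 14.1% rose and 12.5% fell in spleen, and 9.74% rose and 10.5% fell in lung. Lipa, the lysosomal lipase that frees cholesterol from its esters, fell by 1.00 and by 1.36 on the log2 scale in spleen and lung (edgeR adjusted p = 0.000271 and 5.19e-05). Osbpl9, a sterol-binding protein, fell by 0.93 in both tissues (edgeR adjusted p = 0.0009 and 0.00144). Rxra, the partner receptor of LXR and of Pparg, rose by 2.76 and 2.12 (edgeR adjusted p = 0.000252 and 0.00231). Scarb1, a receptor for high-density lipoprotein, rose by 1.66 in lung (edgeR adjusted p = 0.00174).

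In fatty acid elongation, desaturation and supply, 3 of 16 tested genes rose and 3 fell in spleen, and 1 rose and 1 fell in lung. The shares over all tested genes were 14.1% higher and 12.5% lower in spleen, and 9.74% higher and 10.5% lower in lung. Acsl5, which activates fatty acids to their CoA esters, rose by 1.00 in spleen and 0.66 in lung (edgeR adjusted p = 0.000289 and 0.00763). Elovl6, which lengthens the product of fatty acid synthase, fell by 0.92 and by 1.46 (edgeR adjusted p = 0.00567 and 0.000413), opposite in sign to Acaca. Mid1ip1, which promotes the activity of acetyl-CoA carboxylase, rose by 1.59 in spleen (edgeR adjusted p = 0.000919). In the isoprenoid branch, which leads from farnesyl diphosphate to prenylated proteins, dolichol and ubiquinone, 2 of 11 genes rose and 1 fell in spleen, and 1 rose and 1 fell in lung. These isoprenoid counts lie near the shares over all tested genes. Rabggta, a subunit of the enzyme that prenylates Rab proteins, fell by 0.68 and by 0.62 (edgeR adjusted p = 0.0194 and 0.0407). Pdss1, which makes the side chain of ubiquinone, rose by 1.09 and 1.18 (edgeR adjusted p = 0.0397 and 0.0371), and Pggt1b, a subunit of a protein prenyltransferase, by 0.51 in spleen (edgeR adjusted p = 0.0482).

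Of 10 genes of SREBP processing and sterol-sensed degradation, 1 rose and 1 fell in spleen and none was called in lung. The spleen counts lie near the shares over all tested genes, 14.1% higher and 12.5% lower. In lung those shares were 9.74% and 10.5%. Tmem97, which binds Npc1, rose by 1.49 in spleen (edgeR adjusted p = 0.0173). Rnf139, a ubiquitin ligase of the endoplasmic reticulum, fell by 0.73 (edgeR adjusted p = 0.00983). For comparison with the lipid genes, all 16 cell cycle genes rose in spleen and 10 of 16 in lung, against 14.1% and 9.74% of all tested genes.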

How the data were processed

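RNA was measured in 12 libraries, 3 in each of 4 groups, from double-sorted cells. An oligo(dT) primer started the copying of RNA, Tn5 cut the cDNA, and 18 cycles of amplification without molecular identifiers preceded sequencing of paired 38 nt reads, per the labels' protocols. The tools listed are STAR 2.7.3a, featureCounts and Subread 2.0.0 with the build mm10, per the submitters' processing notes, with settings not given in the sources used here. Raw gene counts were deposited by the authors as whole numbers in 1 table of 55011 genes, and were analysed unchanged. Library totals of 3958892 to 9025150 set the precision; the floor of 3 counts reflects counting error alone.

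These counts entered edgeR 4.0.16 under R 4.3.3 and its quasi-likelihood F test (robust dispersion, TMM factors, default low-count filter by group) in 1 fit over all 12 libraries with the group as the only term. It gave 5 contrasts: genotype (∆Foxp3 minus WT) within spleen and within lung, lung minus spleen in WT and in ∆Foxp3, and the interaction. All tests were two-sided; p-values were adjusted by Benjamini-Hochberg over 13295 genes and called under 0.05. "Rose", "fell" and "called" refer to that threshold. Intervals of fold changes are 95% intervals of the fit. Levels per kilobase divide by the union of exons in GENCODE M21, from which coordinates (mm10) were taken. Orders of genes by level per kilobase therefore depend on the annotated exons of each gene.

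The 35 genes, the companion and marker lists, the tests and the alternatives were chosen with earlier results of these data known. Values in every library are given, in each group of genes and each genotype contrast, for up to 5 called genes by adjusted p, and for Srebf1, Srebf2, Insig1 and Insig2. Values of some genes that were not called were added after they were seen. Of each companion list, up to 3 called genes by adjusted p in each genotype contrast were named. Lists are described by counts and medians without a set test. Alternatives were RLE factors, totals with no TMM scaling, filters replaced by none or by 10 CPM in at least 3 libraries, DESeq2 1.42.0, limma 3.58.1 voom with sample weights, edgeR without robust dispersion, only the groups compared, the replicate number as a block and leaving out each library. A fit that omits lung ∆Foxp3 3, lung WT 1 and spleen WT 1 together was added after seeing the data, as a set taken from earlier work on them. On simulated counts for the spleen comparison (12621 genes), the fit recovered 49% of 100 genes changed by 1 on the log2 scale and 87% of 100 changed by 2, and 8.11% of its calls were false. Only those genes were changed, all drawn from the better expressed ones, and none in lung. In the real spleen comparison 26.6% of tested genes were called, so the simulated recovery and false share need not hold for these data. Values of some single genes are not reported here.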

Additional observations from a re-analysis of the deposited data

How the results depend on the processing

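Of 17 calls over the 5 comparisons, 10 held under every alternative run: Mvd, Srebf1, Srebf2, Insig1, Npc2, Scd2 and Acaca in spleen, and Mvd, Lss and Acaca in lung. The other 7 were lost under at least 1 of up to 22 alternatives, 28 of 158 results that were not called passed under at least 1, and no called direction reversed. With DESeq2, 8 genes were higher in spleen and 1 was lower in the interaction. With limma voom, 11 were lower in spleen, 9 lower in lung, 1 higher in the interaction and 2 higher in lung WT than spleen WT. The shares of all genes called by DESeq2 and by limma voom are not given here. Without a low-count filter, 3 were lower in the interaction (Abca1, Npc1 and Scd2), and between lung and spleen ∆Foxp3 1 was higher and 1 lower; a stricter filter, DESeq2 and voom also gave 1 higher there. Without spleen WT 1, lung WT 1 and lung ∆Foxp3 3 together, 1 was lower in lung. Npc1, the 1 gene higher in lung WT, was no longer called (0 genes) without TMM factors, without those 3 libraries or with the replicate block. The cause of these changes was not tested. Leaving out each library gave 4 to 7 higher and 4 to 8 lower in spleen (most without spleen WT 3 and without spleen ∆Foxp3 2), 2 to 4 higher and 3 to 6 lower in lung, 0 higher and 0 to 1 lower in the interaction, 0 to 1 higher in lung WT than spleen WT, and 0 to 1 in each direction between lung and spleen ∆Foxp3 (1 lower without spleen ∆Foxp3 2). A fit of only the groups compared gives no interaction.

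Same-numbered libraries did not deviate together: 0 of 18 pairs had a correlation over 0.1 (-0.092 to 0.0955), and 5 of 12 libraries correlated best with their own number. With the replicate block, 5 genes were higher and 4 lower in spleen, 2 higher and 4 lower in lung, and 0 in the other comparisons. Intervals were wide for Idi1 and Abca1, both at a few CPM in some libraries. Abca1 also varied widely among libraries of a group, and the part of depth in these intervals was not tested.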
